A study of Caenorhabditis elegans with 2 samples.

Results

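Aminoacyl-tRNA synthetases are the enzymes that load each tRNA with its amino acid. They were taken here as the nuclear protein-coding genes whose symbol is 1 letter followed by ars- and a digit, where the letter is the 1-letter code of the amino acid. The rule gave 33 of the 19973 nuclear protein-coding genes of Caenorhabditis elegans, 20 of them for cytosolic enzymes and 13 for mitochondrial enzymes. The measured protein was DIE-1, a transcription factor with zinc fingers, known for its part in shaping the embryo and in making the left and right ASE taste neurons differ. ChIP-seq with an anti-GFP antibody was done on whole young adult hermaphrodites of strain RW10316, whose DIE-1 carried a GFP-FLAG tag at the C-terminus, 64 hours after release from L1 starvation. The 2 samples were biological replicates of this 1 group, so no contrast between groups of samples existed. Tissues were mixed in whole worms, the labels do not name the promoter that drove the fusion, and the control of the authors was not analysed here.

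Animal cells charge tRNAs in the cytosol and also in the mitochondrion, where a separate set of ribosomes makes a few membrane proteins. Many amino acids have a gene for each compartment, some have 1 gene whose product serves both, and animal mitochondria generally make the glutamine tRNA by way of a glutamyl enzyme. Worm messages are often trans-spliced, a step that joins a short leader to the message, so an annotated transcript start can be the splice site and not the place where transcription begins.

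Each gene took its strongest peak with a summit in the promoter window, which reached 1000 bp before and 300 bp past any of its transcript starts. Signal is the authors' own enrichment value for a peak, on a scale that the sources do not state, and the read depth behind it is unknown. The reproducible list held 1432 peaks that the authors derived from both replicates, with a lowest signal of 79.4. The relaxed lists also hold background peaks, per the names the authors gave them. The pooled one had 30000 peaks down to a signal of 18.4. Its 1432 strongest peaks gave 676 protein-coding genes a promoter summit, the same count as the reproducible list. The reproducible list is therefore not separate evidence beside the top of the pooled list. Replicate 1 had 23789 peaks, the lowest at 11.4, and replicate 2 had 29268, the lowest at 12.5. A gene without a summit in a list therefore has a signal that is unknown and not 0.

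Of the 33 synthetase genes that met the symbol rule, only ears-2 had a reproducible peak, and most of the others had weak peaks in the relaxed lists. The share in the reproducible list was 1 of 33 (3.03%, 95% Wilson interval over genes 0.537 to 15.3%), against 3.38% of all protein-coding genes. In the pooled relaxed list 24 of 33 synthetase genes (72.7%, interval 55.8 to 84.9%) had a promoter summit, against 41.5% of all genes. The replicate 1 list had a summit at 21 of 33 (63.6%), against 36.5% of all genes, and the replicate 2 list also at 21 of 33, against 40.8%. These intervals cover counting error only, and genes are not replicates.

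The sequences between genes beside 4 of the strongest synthetase summits are shown first because the values below refer to them. They are the bases of the gap between the synthetase and its upstream neighbour that lie within 149 bp of the summit, read 5′ to 3′ on the strand of the synthetase from the RefSeq genome of WBcel235 (ce11). Capitals mark matches on either strand to the repeat GAGAGA, to the word TTGCGAA and to the word GCGCG, and no other searched motif was found in these stretches. Both words were picked after these sequences had been read.
ears-2 (chrIV:390469-390559, minus strand): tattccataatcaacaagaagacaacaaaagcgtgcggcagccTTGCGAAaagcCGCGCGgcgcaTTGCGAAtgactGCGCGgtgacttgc
fars-3 (chrII:8464519-8464817, plus strand): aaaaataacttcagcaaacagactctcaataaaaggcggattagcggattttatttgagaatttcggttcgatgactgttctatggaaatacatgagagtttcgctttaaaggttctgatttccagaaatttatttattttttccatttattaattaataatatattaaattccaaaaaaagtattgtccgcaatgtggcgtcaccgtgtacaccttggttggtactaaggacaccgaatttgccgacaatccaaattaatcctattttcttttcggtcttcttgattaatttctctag
aars-1 (chrII:11464498-11464784, minus strand): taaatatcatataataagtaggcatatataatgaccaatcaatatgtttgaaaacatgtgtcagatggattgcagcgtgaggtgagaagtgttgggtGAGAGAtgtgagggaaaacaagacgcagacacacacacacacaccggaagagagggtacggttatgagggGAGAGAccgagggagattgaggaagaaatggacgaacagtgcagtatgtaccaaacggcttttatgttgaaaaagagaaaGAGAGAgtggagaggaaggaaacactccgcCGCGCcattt
sars-1 (chrIV:10003503-10003725, plus strand): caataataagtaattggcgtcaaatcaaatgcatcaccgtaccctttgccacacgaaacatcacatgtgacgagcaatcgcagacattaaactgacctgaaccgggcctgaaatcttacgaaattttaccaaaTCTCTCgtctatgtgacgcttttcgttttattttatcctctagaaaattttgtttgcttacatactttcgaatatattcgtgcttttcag

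The 4 stretches differed in base composition. GC content was 53.8% at ears-2, 44.3% at aars-1, 37.7% at sars-1 and 32.8% at fars-3. The ears-2 stretch is the whole gap of 91 bp to the head-to-head neighbour uncp-18, and it holds TTGCGAA 2 times and GCGCG 3 times, overlaps counted. At aars-1, GAGAGA stood 3 times.

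None of the 20 cytosolic genes had a reproducible peak (0%, Wilson interval 0 to 16.1%), which is near the 3.38% of all genes. The highest was fars-3, for the beta subunit of the phenylalanyl enzyme, with 75.9 in the pooled list, 45.7 in replicate 1 and 30.5 in replicate 2. Its summits were 8 bp apart in the replicates, and the pooled summit lay at -180 bp in the gap after zyg-9. The gene for the alpha subunit, fars-1, had no summit in any relaxed list, and its nearest pooled summit was 1138 bp from a start. Its signal is therefore unknown and cannot be ranked against that of fars-3.

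The glutaminyl gene qars-1 had a pooled signal of 54.8, with 22.4 in replicate 1 and 38.3 in replicate 2. Its replicate summits were 1313 bp apart, at different transcript starts of the gene, and so were not the same peak. For sars-1, the cytosolic seryl gene, the values were 53.1 pooled, 12.0 in replicate 1 and 40.3 in replicate 2. Although its replicate summits were 50 bp apart, the replicate 1 peak was near the lowest signal of its list. The sars-1 summit was nearer to the start of C47E12.2 (96 bp) than to its own start, from which it lay at -128 bp.

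Pooled signals of the remaining cytosolic genes with a summit ran from 45.0 at iars-1 to 19.2 at nars-1. At iars-1, the isoleucyl gene, the summit lay at -847 bp in a coding exon of pges-2, 36 bp from a start of that gene. cars-1 (40.7), hars-1 (38.7), tars-1 (36.7), mars-1 (33.6), pars-1 (32.4), aars-2 (31.8) and gars-1 (30.7) followed, then lars-1 (29.3), rars-1 (27.4) and kars-1 (26.8). The weakest pooled peak of a cytosolic gene, at the asparaginyl gene nars-1, lay at -457 bp. No nars-1 summit was listed in replicate 1, and in replicate 2 the strongest had 27.4 at -972 bp, so it was another peak. The aspartyl gene dars-1 had a summit only in the replicate 1 list (11.9), and ears-1, the cytosolic glutamyl gene, only in the replicate 2 list (17.3). Like fars-1, the tryptophanyl gene wars-1 and the tyrosyl gene yars-1 had no summit in any relaxed list.

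Among mitochondrial enzymes, ears-2 led. Its product is the mitochondrial glutamyl-tRNA synthetase (gene at IV:388686-390468, minus strand). The peak (IV:390240-390675) had a signal of 136.3 in the pooled and reproducible lists, 61.4 in replicate 1 and 69.4 in replicate 2. It was the strongest synthetase peak in all of these lists, at rank 520 of the pooled list, 514 of the replicate 1 list and 679 of the replicate 2 list. The summit lay 10 bp inside the 5′ UTR of ears-2 and 102 bp upstream of the start of uncp-18, so the same summit counted for both genes. Replicate summits were 13 bp apart, and the nearest short RNA gene was 16855 bp away. The pooled signal was higher than at 97.7% of the genes with a pooled promoter summit. Of the glutamyl pair, the mitochondrial gene thus had the strong peak and the cytosolic one a single weak peak.

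The next mitochondrial gene was vars-1, annotated by RefSeq as a valine tRNA ligase, with its start 196 bp after the end of oma-2 on the same strand. Its peak (V:8030871-8031306) had a signal of 79.2 in the pooled list, 32.2 in replicate 1 and 48.8 in replicate 2. That signal stood at rank 1436 of the pooled list, close below the lowest reproducible signal of 79.4. Both replicate summits lay within 32 bp of each other, at -314 and -282 bp from the start. The pooled summit, at -322 bp, fell in the 3′ UTR of oma-2, a gene for an oocyte maturation protein.

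The peak of aars-1, for the mitochondrial alanyl enzyme, had a signal of 59.0 in the pooled list, 35.0 in replicate 1 and 33.8 in replicate 2. Its summit lay at -138 bp, between aars-1 and the head-to-head neighbour rga-1. Below these 3, the mitochondrial genes had pooled signals from 31.2 at yars-2 to 18.7 at rars-2, which was close to the lowest peak of the list. With them were nars-2 (29.6), lars-2 (23.6), fars-2 (23.6) and iars-2 (22.6). The rars-2 summit lay at -211 bp in the pooled list. In replicate 1 its peak had 17.9 and lay at 54 bp, and replicate 2 listed none. The iars-2 summit lay at -362 bp in the pooled list and at -360 bp in replicate 2, where its signal was 17.6, and replicate 1 listed none. Both genes thus had a summit in a single replicate list, and at rars-2 it was not at the place of the pooled summit. No summit was listed in any relaxed list at dars-2, mars-2, pars-2 and sars-2, which with 3 cytosolic genes made 7 of the 33. The other 26 (78.8%) had a summit in at least 1 relaxed list, against 53.2% of all genes.

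**Figure D1:**
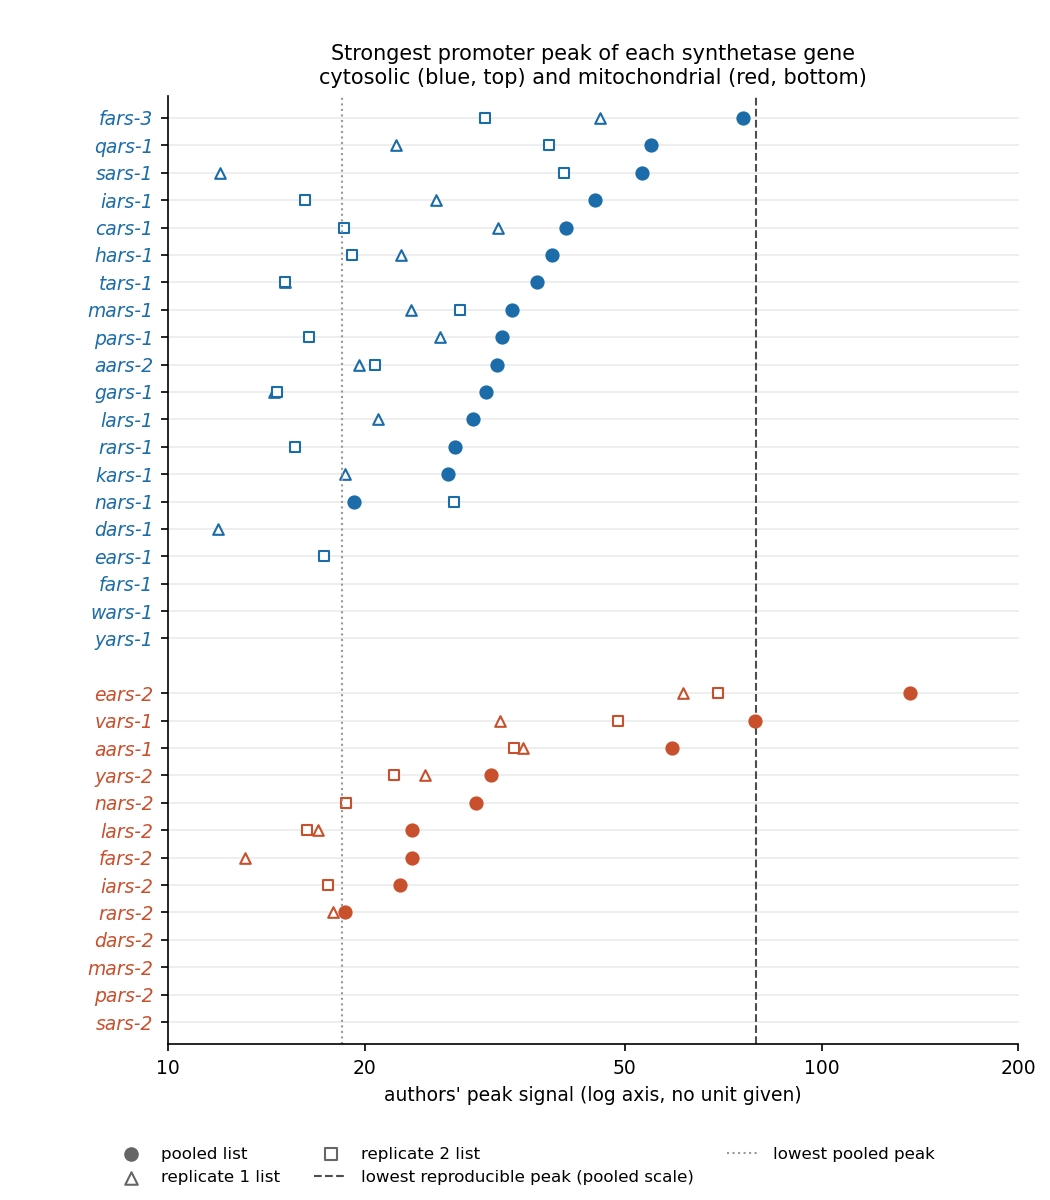
Signal of the strongest promoter peak (horizontal log axis, the authors' value, no unit given) for each synthetase gene, with cytosolic genes in blue above and mitochondrial genes in red below. Filled circles are the pooled list, triangles replicate 1 and squares replicate 2; only ears-2 (136.3) lies right of the dashed line at 79.4, and vars-1 (79.2) touches it.

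The 2 classes could not be told apart by the share of genes with a peak. In the pooled list 15 of 20 cytosolic genes (75%, interval 53.1 to 88.8%) and 9 of 13 mitochondrial genes (69.2%, interval 42.4 to 87.3%) had a summit. In each replicate list the counts were 14 of 20 (70%) and 7 of 13 (53.8%). These intervals overlap, which does not show that the shares are equal, and no test was made because genes are not replicates. The median pooled signal of genes with a summit was 33.6 over cytosolic genes and 29.6 over mitochondrial genes, beside 33.7 over all 8296 genes with a summit. Of the 24 synthetase genes, 10 were above that last value, 7 of them cytosolic and 3 mitochondrial.

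The order of the 2 classes was not stable. The difference of median log10 pooled signal, cytosolic minus mitochondrial, was 0.0542. In the replicate lists it was -0.058 in replicate 1 and -0.0706 in replicate 2, with medians of 21.7 and 24.7 for cytosolic and mitochondrial genes in replicate 1, and 18.8 and 22.2 in replicate 2. The classes therefore changed order between the pooled list and both replicate lists, which held fewer of the genes. Among the 3000 strongest pooled peaks were 1 of 20 cytosolic genes (fars-3) and 3 of 13 mitochondrial genes (ears-2, vars-1 and aars-1), against 7.37% of all genes. Among the 10000 strongest were 7 of 20 cytosolic and still 3 of 13 mitochondrial genes, against 20.3% of all genes.

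**Figure D2:**
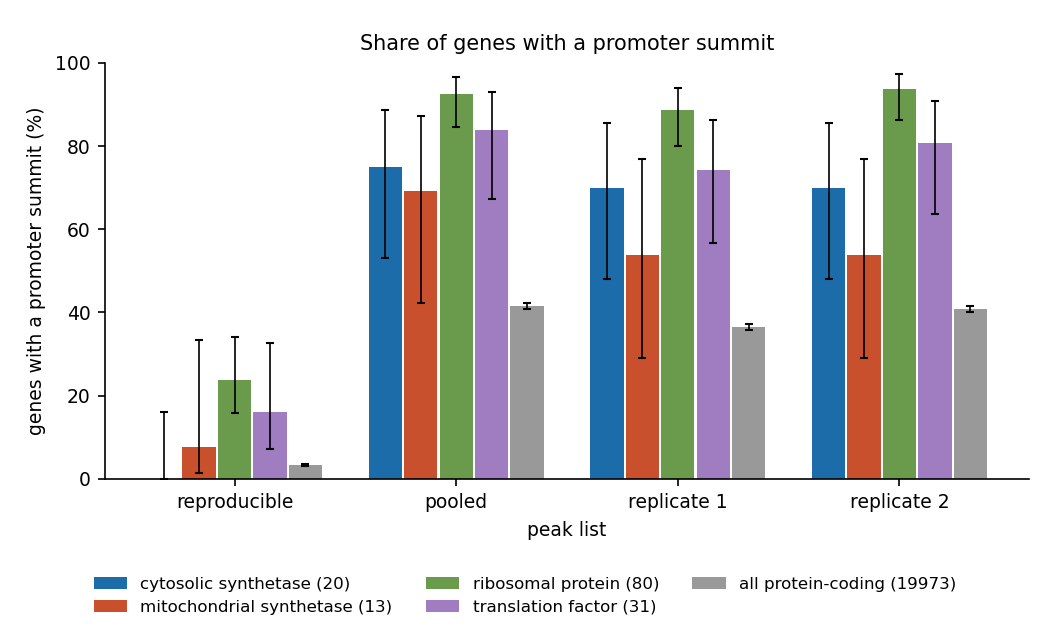
Share of genes with a promoter summit (vertical axis, percent) in each of the 4 peak lists for cytosolic and mitochondrial synthetases, ribosomal protein genes, translation factor genes and all protein-coding genes, with 95% Wilson intervals over genes as bars. The intervals of the 2 synthetase classes overlap in every list, and in the pooled list both bars (75% and 69.2%) stand above the 41.5% of all genes.

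The 4 strongest peaks lay within 200 bp of the same place in both replicates, and many weaker ones did not. Of the 33 genes, 16 (48.5%) had a summit in both replicate lists, against 26.4% of all genes. Summits of 8 of the 16 (50%) were within 200 bp of each other, against 61.4% of the 5269 protein-coding genes listed in both. These 8 were ears-2, vars-1, fars-3, aars-1, sars-1, iars-1, tars-1 and aars-2. The replicate signals of the 16 genes were related with a Spearman rho of 0.444 and, on log10 values, a Pearson r of 0.524. Without ears-2 these were 0.325 and 0.289, beside 0.535 and 0.672 over the 5269 genes. The genes share the same 2 libraries and their unknown depths, so these correlations are a description.

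**Figure D3:**
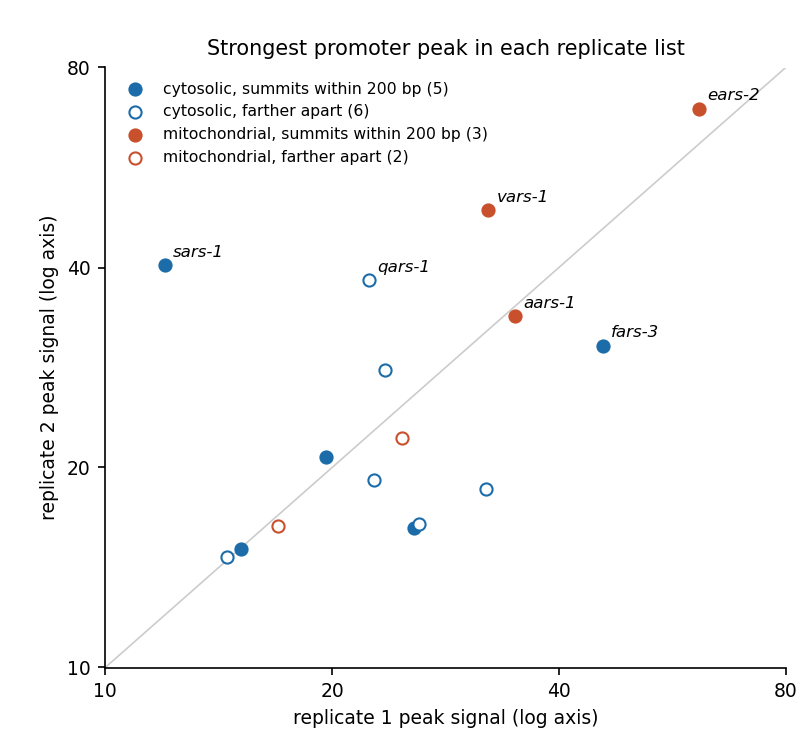
Strongest promoter peak of the 16 synthetase genes listed in both replicates, with replicate 1 signal on the horizontal and replicate 2 signal on the vertical log axis; filled points have summits within 200 bp. ears-2 (61.4 and 69.4) is highest on both axes, and sars-1 (12.0 and 40.3) is farthest from the line of equal values.

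When each replicate list was limited to its 1432 strongest peaks, the genes above that limit differed. Replicate 1 had ears-2 and fars-3 (rank 944), and replicate 2 had ears-2 and vars-1 (rank 1367). These are 2 of 33 genes each time, against 3.43% of all genes in replicate 1 and 3.21% in replicate 2. In replicate 1 vars-1 was at rank 2126, and in replicate 2 fars-3 was at rank 4369. ears-2 was the gene above the limit in both.

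Summits of the pooled list were spread over the promoter window, with a median of -159 bp over the 24 genes and -232 bp over all genes. The median was -138 bp over the 15 cytosolic genes and -211 bp over the 9 mitochondrial genes. Summits were upstream of the nearest own start at 16 of 24 (66.7%), against 76.3% of all genes, and within 200 bp of it at 12 of 24 (50%), against 40.1%. Of the 24 summits, 11 lay outside the body of the synthetase gene, 6 in its coding exons, 5 in its introns and 2 in its 5′ UTR (ears-2 and yars-2). For 5 genes (sars-1, iars-1, tars-1, iars-2 and nars-1) the start of another gene was nearer to the summit. No share over all genes is given for these places. With the nearest start only, the pooled count fell from 24 to 20 of 33, and the share of all genes from 41.5% to 36.1%.

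**Figure D4:**
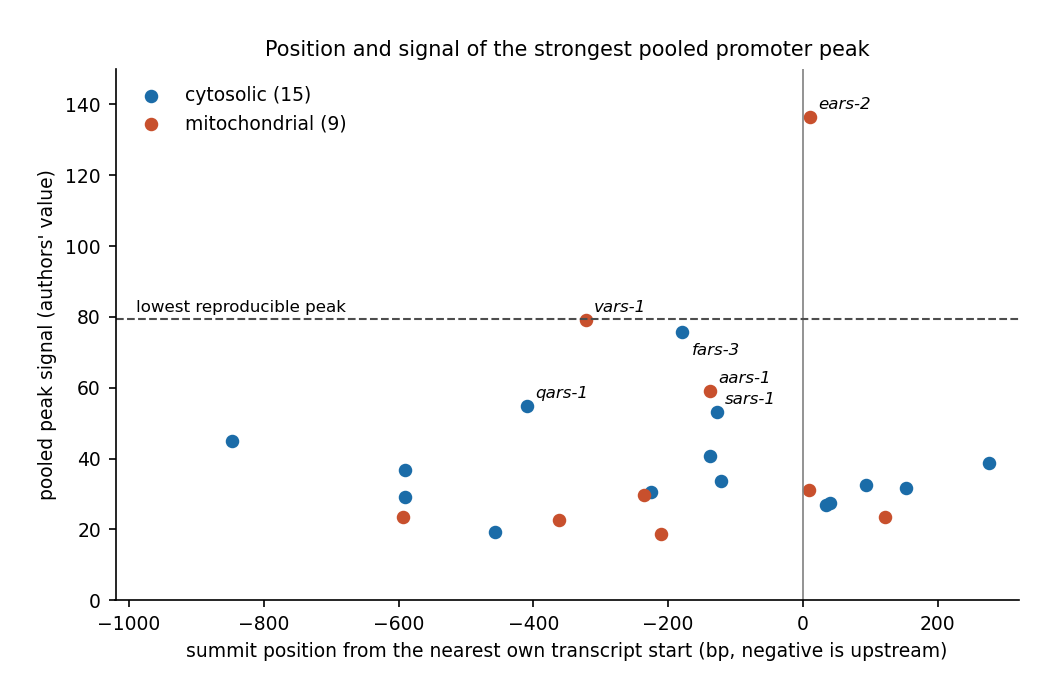
Position of the strongest pooled summit from the nearest own transcript start (horizontal axis, bp, upstream negative) against its pooled signal (vertical axis, the authors' value) for 15 cytosolic and 9 mitochondrial synthetase genes. Points lie on both sides of the start, and ears-2, 10 bp downstream, stands apart at 136.3.

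No pooled synthetase summit lay within 200 bp of a short RNA gene (0 of 24), and the nearest, at qars-1, was 957 bp from a miRNA gene. In the replicate lists the nearest were 284 bp at qars-1 in replicate 1 and 550 bp at nars-1 in replicate 2. Summits at short RNA genes were few at promoters in general. Leaving them out lowered the pooled share of all genes only from 41.5% to 40.7%, so the 0 of 24 is not particular to the synthetases. Synthetase genes with a head-to-head upstream neighbour had a pooled summit at 14 of 18 (77.8%), and those with a neighbour on the same strand at 10 of 15 (66.7%). Over all genes these shares were 42.7% and 40.5%. The layouts differed by class: 15 of 20 cytosolic genes had a head-to-head neighbour, and 3 of 13 mitochondrial genes did. Over all genes 9071 had a head-to-head neighbour and 10897 a neighbour on the same strand. The class difference was not tested.

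Of the motifs searched, 3 were in no synthetase window and the others in 3 to 6 of 24. In windows of 201 bp around the pooled summit, on both strands, the B box core GTTCGANNC of tRNA promoters, the amino acid response site TGATGNAA and the E-box CACGTG matched 0 of 24, against 2.9%, 4.65% and 4.54% of 7250 promoter summits. GAGAGA matched 6 of 24 (25%), against 20.1%, and the TATA box TATAAA also 6 of 24, against 20.5%. GCGCG was found in 5 of 24 (20.8%), against 19.1%, and TTGCGAA in 3 of 24 (12.5%; ears-2, hars-1 and qars-1), against 4.28%. These 2 words were picked after the ears-2 sequence had been read, and ears-2 is among the matches of both. Their counts were thus partly fixed in advance and are no evidence of enrichment. Median GC content of the windows was 38.1% at synthetase summits and 39.3% at all promoter summits. A match is a description of the letters only.

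The nuclear tRNA genes, whose products the cytosolic enzymes charge, mostly had reproducible peaks close by, counted in another window than the promoters. A reproducible summit lay within 200 bp of 36 of 41 nuclear tRNA genes for glutamate, which ears-1 serves, and of 11 of 14 for phenylalanine, which fars-1 and fars-3 serve. Mitochondrial enzymes such as those of ears-2 and vars-1 charge tRNAs of the mitochondrial genome, which were not analysed here. Shares over the 20 amino acids ran from 60% for histidine (12 of 20) to 92.6% for aspartate (25 of 27). Those of glutamate (87.8%) and phenylalanine (78.6%) lay within that range. The single-gene synthetase of histidine, hars-1, had a pooled signal of 38.7 and no reproducible peak. A relation between these shares and the synthetase peaks was not tested.

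Other genes of translation stood higher in the same lists. Beside the 1 of 33 synthetase genes with a reproducible promoter peak, there were 19 of 80 ribosomal protein genes (23.8%) and 5 of 31 genes for translation factors (16.1%). Median pooled signals were 32.1 for the synthetases, 51.3 for ribosomal protein genes and 49.0 for factor genes. In the pooled list 72.7% of synthetase genes had a summit, and 92.5% of ribosomal protein genes and 83.9% of factor genes did.

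Other genes of the tRNA cycle are set beside the shares of all genes, 3.38% in the reproducible and 41.5% in the pooled list. Elongation factors, some of which carry charged tRNA to the ribosome or move it there, had 2 of 10 in the reproducible list, at eef-1A.2 (128.6) and eef-1A.1 (89.3). Both are also among the translation factor genes counted above. RNA polymerase III and its factors, which transcribe tRNA genes, had 1 of 11, at the subunit gene rpac-19 (94.8 pooled, 44.5 in replicate 1 and 52.4 in replicate 2). Genes of tRNA processing and modification had 0 of 19 and those of amino acid sensing 0 of 9, which for lists of this size is near the 3.38% of all genes. Pooled summits were at 9 of 10 elongation factor genes and 6 of 11 genes of RNA polymerase III and its factors. They were at 14 of 19 processing and 6 of 9 sensing genes, against 41.5% of all genes. The highest pooled signals of the processing and sensing lists were 55.8 at tgt-1, a tRNA guanine transglycosylase subunit, and 53.9 at raga-1, a Rag GTPase of the TOR pathway. The starvation response factor gene atf-4 had 50.1.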

How the data were processed

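Peak lists on ce11 in the narrowPeak layout were used. Per the labels, the description names an anti-GFP antibody and the antibody tag names die-1. No source used here names the aligner, the peak caller, the IDR threshold or a version. The column of signal holds the authors' own enrichment value. The q-value column, deposited as −log10 of q, reached 2.41 at most in the pooled list, and ranks were therefore taken from signal. The pooled and reproducible lists were derived from both replicates, per the text notes deposited with the samples.

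Genes and starts came from the Ensembl 115 models of WBcel235. RefSeq of the same assembly named 1 member, mars-2, that Ensembl gives by its sequence name. Compartments came from RefSeq product names for 15 genes and from general knowledge for 18. Of these, gars-1, hars-1 and kars-1 serve both compartments and were counted as cytosolic. tars-1 was planned as a dual enzyme too, but its RefSeq product name says cytoplasmic. It was therefore kept when dual enzymes were left out. The promoter assignment was tested on simulated summits. Python 3.11.15, numpy 2.4.6, pandas 2.3.3 and scipy 1.17.1 were used.

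Members, lists and comparisons were chosen with earlier results of these data known. Named by rule were members with a reproducible peak, the strongest 5 and weakest 3, the strongest per compartment, and up to 4 genes with a reproducible peak per other list. The remaining members are given by signal or as unlisted. tgt-1, raga-1 and atf-4 were named after their values were seen. No p-value was computed: 1 group existed, and genes are not replicates. Tried instead were other windows (500 and 100 bp, 2000 and 500 bp), starts and lists, given at the end. The ce10 lists were not used because the gene models are on ce11.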

Additional observations from a re-analysis of the deposited data

How the results depend on the processing

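The counts in the reproducible list (1 of 33, with 0 cytosolic and 1 mitochondrial) kept these values under both other windows, with the most upstream or nearest start only, without summits at short RNA genes, with the strongest 50% of peaks and, for the classes, without dual enzymes. Over all genes the share under these settings ran from 1.46 to 5.26%. With 1 replicate left out, counts in the 1432 strongest peaks of the other were 2 of 33 both times, against 3.21 to 3.43% of all genes. By class they were 0 to 1 for cytosolic and 1 to 2 for mitochondrial genes. Pooled counts, whose alternatives were chosen after seeing the data, ran from 20 to 27 of 33 (all genes 28.3 to 54.0%), 12 to 17 cytosolic and 7 to 10 mitochondrial. The class difference of 0.0542 became 0.00374 with the narrow window, 0.0238 with the nearest start, 0.0737 without dual enzymes and 0.122 with unlisted genes at the lowest signal. It turned to -0.0385 with the wide window, -0.0191 with the most upstream start and -0.0706 to -0.058 with 1 replicate left out. The cause was not tested. No paired analysis was possible because there was 1 group.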

Other observations

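Some loci named for synthetases fall outside the symbol rule, and 3 of them were looked up after the RefSeq product names and their values had been seen. The cytosolic valyl enzyme is coded by glp-4, whose pooled signal was 27.5 (13.7 in replicate 1 and 14.8 in replicate 2), beside 79.2 at vars-1. No promoter summit was listed at prx-10, a locus whose RefSeq products include a mitochondrial tryptophan tRNA ligase. K03B4.1, whose RefSeq product name is seryl-tRNA synthetase, had a reproducible peak with a signal of 86.9, and 36.2 in replicate 1 and 54.7 in replicate 2, with summits 152 bp downstream of its start in the pooled list, and 159 and 69 bp in the replicates.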
